A study of Sus scrofa with 33 samples.

Results

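The genes described here build and hold the extracellular matrix of the pig pituitary: collagens, laminins, thrombospondins, the ADAMTS proteases and the integrin receptors. They were taken by name, as every gene whose array name was a collagen chain, a numbered laminin chain, a numbered thrombospondin, a numbered ADAMTS or a numbered integrin subunit, with 1 collagen name set aside by the rule. The rule used no measured value. It found 76 genes with 162 probes among the probes of a porcine Agilent oligonucleotide array, and 63 of these genes, with 132 probes, were in the deposited table of 45667 probes with log2 intensities. Integrin subunits named by a letter alone, such as the alpha V chain, fell outside the rule. Where a gene had several kept probes, the one with the highest mean over all arrays stood for the gene and the others are given beside it.

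Pituitary tissue came from castrated male growing pigs of 3 genetic groups, Large White (LW), Creole (CR) and their F1 cross. There was 1 array per animal, with 33 arrays in all. The methods name the anterior lobe as the part that was sampled. Pigs were kept under thermoneutral conditions (TN, 24 °C in the labels) or slaughtered after heat stress (HS). For HS the labels gave 30 °C, whereas the submitters' protocol text gave 32 °C for 5 days. The groups were LW TN with 5 arrays, LW HS with 6, CR TN with 5, CR HS with 6, F1 TN with 6 and F1 HS with 5. According to the methods the pigs entered the climatic room at 11 weeks of age and the TN pigs were slaughtered before the heat began, so temperature, slaughter day and age cannot be told apart. No other agent, allele or transgene was involved. Pen, slaughter day and parents, which the study's own model used, were not in the labels. By the methods, the pigs of a breed came in blocks of littermates, so some animals of a genetic group were related. The fits took each array as independent. Their p-values measure the spread between these animals and not that between litters, pens or slaughter days. The array LW HS 3 carried Large White in its title and Creole in its breed field. It was analysed by its title, and of the 17 genes called between LW and CR when it was left out, its value lay nearer to the other LW arrays for 11 and nearer to the CR arrays for 6.

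Collagens are trimers of chains built from the repeat glycine-X-Y. Types I, III and V form fibrils, types IV, XV and XVIII belong to basement membranes or lie beside them, type VI forms beaded filaments, and types XII and XIV bind to fibril surfaces. Laminins are heterotrimers of an alpha, a beta and a gamma chain and make the sheet of the basement membrane together with type IV collagen. Thrombospondins are secreted glycoproteins that bind cells and matrix, ADAMTS proteases trim procollagens and proteoglycans, and integrins are alpha and beta pairs in the cell membrane that bind these ligands. In the pituitary this matrix surrounds the endocrine cell cords and the sinusoidal capillaries, and its fibrillar collagens are made largely by pericytes and fibroblasts.

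The hormone cell list used to check the tissue was present: 6 of 7 genes (growth hormone, prolactin, pro-opiomelanocortin and gonadotropin chains among them) had a kept probe that all 33 arrays measured well above background, while TSHB had none in the table. The summed log2 level of these 6 ranged from 20.96 to 21.25 in TN and from 21.09 to 21.25 in HS. The share of well-measured spots (well above background) was 73.5% to 82.2% per array, with 0 saturated spots. Of the 132 member probes, 112 were measured well above background by each of the 33 arrays, and the least detected by 18.

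By family, 32 of 35 collagen genes were kept with 73 probes, 7 of 9 laminins with 9, 2 of 4 thrombospondins with 8, 8 of 12 ADAMTS genes with 13, 7 of 8 integrin alpha genes with 10 and 7 of 8 integrin beta genes with 19. The 13 genes without a probe in the table were ADAMTS13, ADAMTS18, ADAMTS19, ADAMTS20, COL19A1, COL22A1, COL28A1, ITGA8, ITGB4, LAMA1, LAMB3, THBS2 and THBS4. Of the 30 member probes outside the table, 12 were well above background on 0 arrays and 2 on all of them, with a median of 1 array.

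The probes are DNA strands of 60 bases, and those inside the triple helix can be recognised by the glycine codon that opens each such repeat. Among the 73 kept collagen probes a script found 7 with this pattern in the strand that was spotted. The probes of 3 chains are shown because they belong to a fibrillar, a basement membrane and a network-forming collagen, with glycine codons in capitals.
COL1A2: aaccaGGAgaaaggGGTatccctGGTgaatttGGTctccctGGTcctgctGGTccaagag
COL4A1: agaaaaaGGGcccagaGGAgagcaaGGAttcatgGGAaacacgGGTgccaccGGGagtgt
COL8A1: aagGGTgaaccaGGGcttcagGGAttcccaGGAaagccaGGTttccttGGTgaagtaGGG
In 2 further probes, those of COL9A1 and COL11A1, the full pattern stood in the reverse complement of the spotted strand, as printed next.
COL9A1: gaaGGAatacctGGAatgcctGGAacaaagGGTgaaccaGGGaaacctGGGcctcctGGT
COL11A1: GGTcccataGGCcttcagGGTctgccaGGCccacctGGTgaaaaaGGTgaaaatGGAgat
Each of these 2 was the only kept probe of its gene. Since spotted strands on such arrays are meant to match the messenger RNA, the values of COL9A1 and COL11A1 are counted below but are not read as levels of these genes. Of the 132 kept member probes 30 shared a run of 20 bases with at least 1 probe of another array name, and whether these names are the same transcript was not resolved. They included the representative probes of COL15A1 (3 such probes) and of COL1A1, COL18A1, COL4A3, LAMC1, ITGB2 and THBS3 (1 each), and the second probes of COL1A1 and THBS3.

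The first comparison set heat against thermoneutral conditions. No member passed the test for temperature (limma, additive model of breed and temperature, Benjamini-Hochberg adjustment over all 45667 probes): 0 of 132 member probes had an adjusted p under 0.05, beside 10 probes, or 0.0219%, over the whole table. Taking the unadjusted p under 0.05, 36 of the 132 member probes (27.3%) had lower HS values and 1 (0.758%) was higher, whereas over all probes 3.86% were lower and 4.91% higher. The median log2 difference was -0.09 over the member probes and 0.01 over all probes. Counted by gene, 47 of 63 representative probes lay below 0, and 14 of them had an unadjusted p under 0.05, all 14 on the lower side.

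The families were counted by probe and by gene, and differences between families were not tested. Among collagen probes 25 of 73 had lower HS values at that unadjusted threshold and 0 had higher ones, with a median difference of -0.15. Thrombospondin probes counted 5 of 8, all 5 of them of THBS1. The laminins had 2 of 9 probes lower, the ADAMTS proteases 2 of 13, the integrin alpha chains 1 of 10 and the integrin beta chains 1 of 19, and the 1 higher probe belonged to ITGB5, a partner of the alpha V integrin chain. Several of these probes came from the same gene. By representative probe the counts were 9 of 32 collagen genes, 2 of 7 laminins, 0 of 2 thrombospondins, 1 of 8 ADAMTS genes, 1 of 7 integrin alpha chains and 1 of 7 integrin beta chains.

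**Figure D1:**
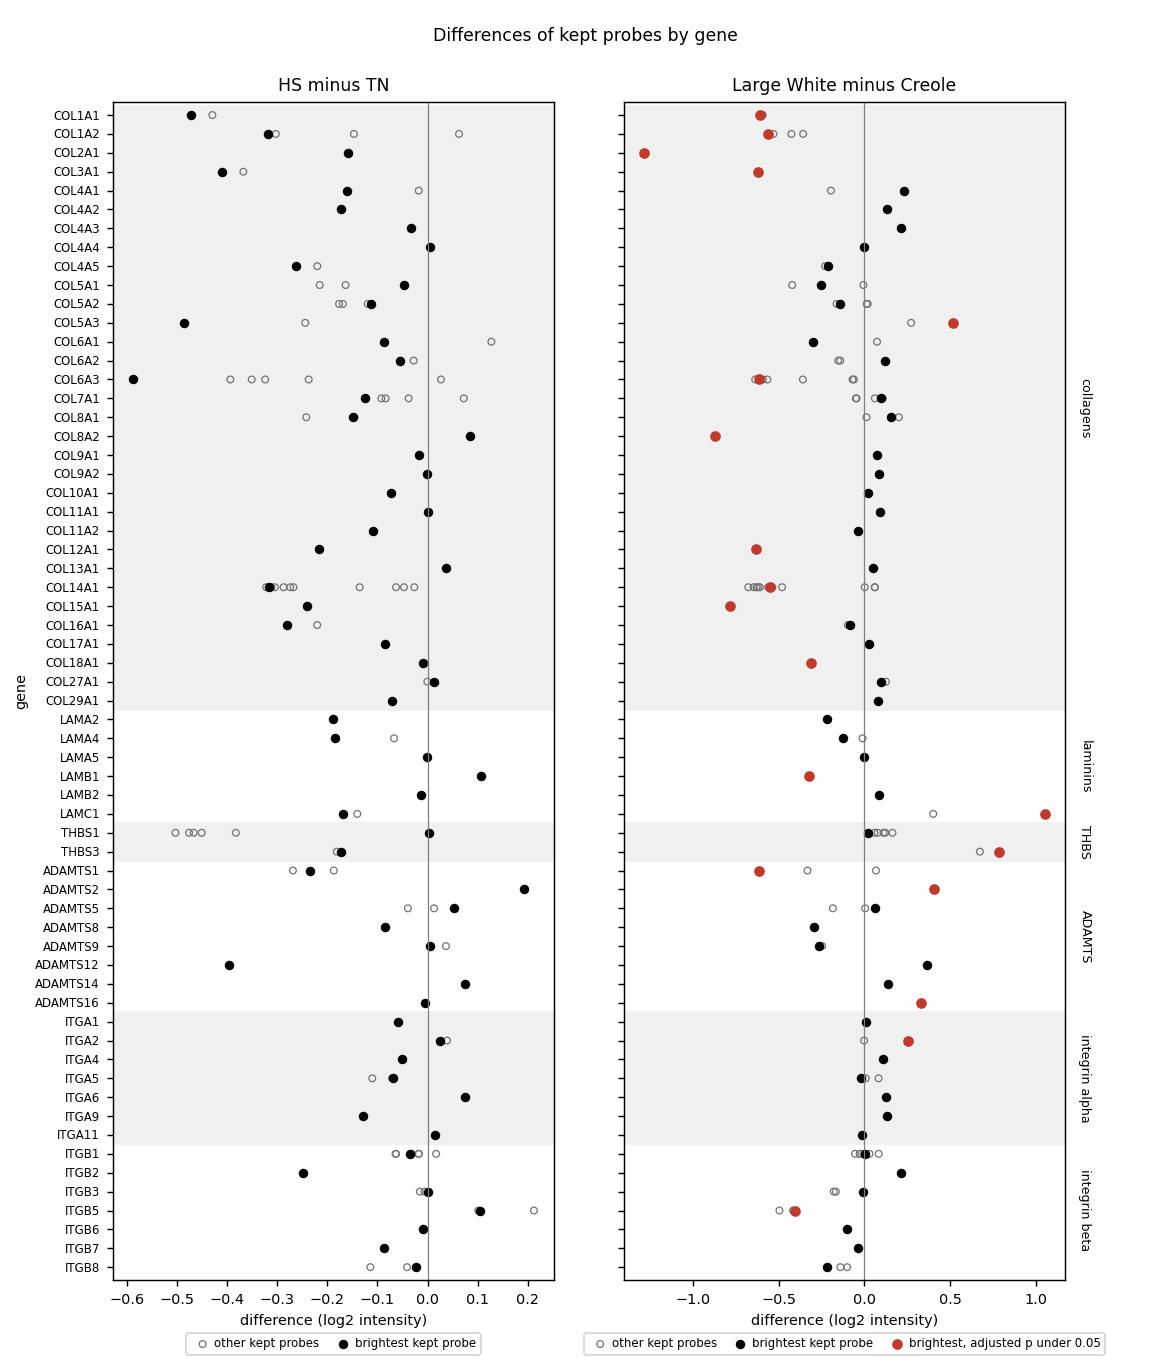
Log2 differences of the kept probes for HS minus TN (left) and Large White minus Creole (right), by gene and family, with the representative brightest probe filled, the other probes open, and representative probes with an adjusted p under 0.05 in red. On the left 0 points are red and most collagens lie left of 0; on the right 19 genes are red, 13 to the left and 6 to the right.

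The 6 genes with the smallest p were 5 fibril or filament collagens and 1 protease. For COL6A3, the large chain of the type VI filament, log2 intensity over the 16 TN arrays had a lowest value of 7.85, a median of 8.29 and a highest of 9.92, and over the 17 HS arrays these were 7.19, 7.81 and 9.13. The groups overlapped, but in 16 of 17 HS arrays the value was under the mean of the TN arrays of that genetic group. The difference was -0.59 ± 0.14 (SE), with an adjusted p of 0.129 (limma). The 6 other COL6A3 probes ran from -0.59 to 0.03, and the median over all 7 was -0.35.

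COL5A3, a minor chain of type V fibrils, ran from 9.20 through a median of 9.62 to 10.92 in TN and from 8.56 through 9.32 to 10.02 in HS. Again 16 of 17 HS arrays were under their own TN mean, and the difference was -0.49 ± 0.12 (SE) with an adjusted p of 0.124 (limma). The second COL5A3 probe gave -0.24.

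The chains of type I collagen, the main fibril protein of connective tissue, are COL1A1 and COL1A2. COL1A1 had a lowest, median and highest value of 11.9, 12.53 and 13.59 in TN and of 11.6, 12.14 and 13.15 in HS, a difference of -0.47 ± 0.14 (SE), adjusted p 0.245 (limma). COL1A2 had 11.54, 11.93 and 12.86 in TN and 11.09, 11.77 and 12.42 in HS, a difference of -0.32 ± 0.09 (SE), adjusted p 0.168 (limma). For both chains 15 of 17 HS arrays were below their own TN mean. The second COL1A1 probe gave -0.43. The 3 other COL1A2 probes spanned -0.30 to 0.06, and the triple-helix probe printed above gave -0.15.

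COL3A1, the chain of type III fibrils, which are mixed with type I, had 11.5, 12.23 and 13.08 in TN against 11.33, 11.81 and 12.56 in HS. Its difference was -0.41 ± 0.12 (SE) with an adjusted p of 0.189 (limma), and 16 of 17 HS arrays were below their TN mean. The second COL3A1 probe gave -0.37. ADAMTS12, a secreted metalloprotease that was well above background on 29 arrays, had a difference of -0.40 ± 0.12 (SE), adjusted p 0.264 (limma), with 16 of 17 HS arrays below. None of these 6 genes passed the threshold. They were taken for their small p, so the counts of HS arrays below the TN means describe them and are no further support. For COL6A3 the mean of LW TN was raised by LW TN 2, and the 4 other LW TN arrays lay below it too.

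THBS1, a secreted thrombospondin that activates latent TGF-beta, depended on the probe. Its brightest probe, at a mean of 9.92, had 9.71, 9.93 and 10.16 as lowest, median and highest values in TN and 9.63, 9.89 and 10.3 in HS, a difference of 0.0032 ± 0.06 (SE) with an adjusted p of 0.994 (limma). The 5 other THBS1 probes, at means between 7.01 and 8.10, gave differences from -0.50 to -0.38, with unadjusted p from 0.000329 to 0.00226 and adjusted p from 0.143 to 0.248 (limma). On all 5 of them LW TN 2 was the highest array of its group. The brightest probe is shown because its values went apart from those of the other 5 probes of its gene.
THBS1: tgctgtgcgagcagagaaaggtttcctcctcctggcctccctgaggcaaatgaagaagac
Which transcripts each probe reads was not tested.

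**Figure D2:**
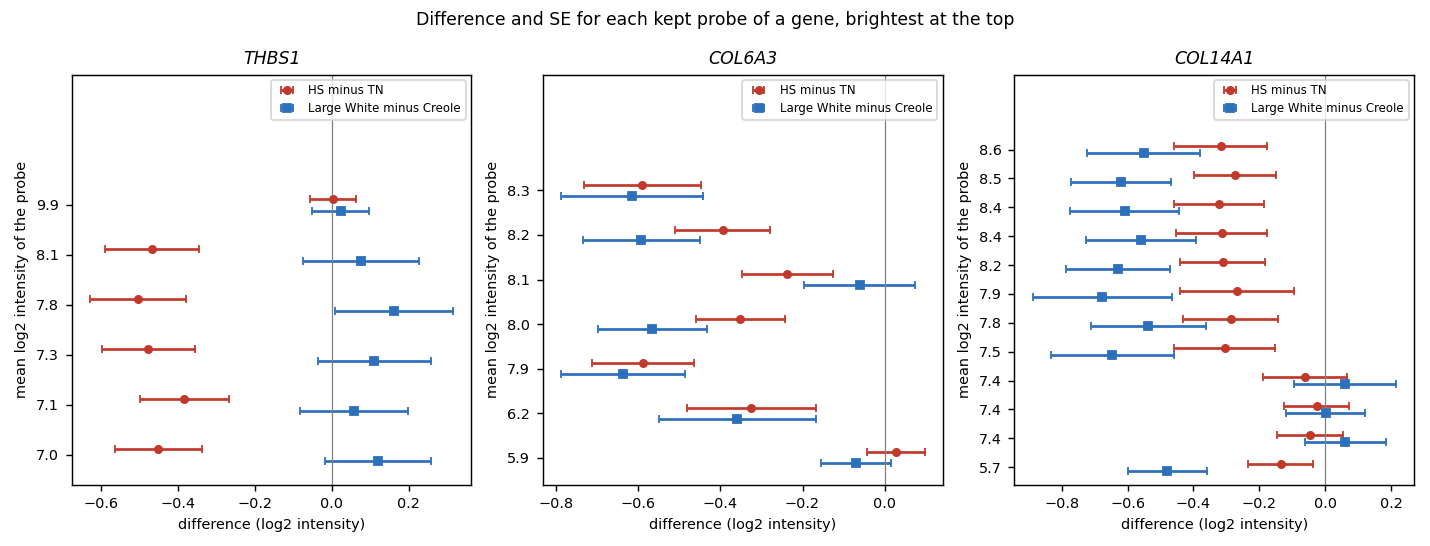
Log2 difference with its SE for every kept probe of THBS1, COL6A3 and COL14A1, ordered by the mean log2 intensity on the y axis, for HS minus TN (red circles) and Large White minus Creole (blue squares). The top THBS1 probe lies at 0 while the other 5 lie between -0.50 and -0.38 in HS minus TN, and 3 COL14A1 probes lie near 0 in both comparisons while the other 9 lie lower in Large White.

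The chains of the vascular basement membrane showed smaller differences. COL4A1 and COL4A2, the common chains of type IV collagen, had differences of -0.16 ± 0.09 (SE) and -0.17 ± 0.12 (SE). LAMA4, the alpha chain typical of endothelial laminin, was at -0.19 ± 0.07 (SE), LAMC1, the common gamma chain, at -0.17 ± 0.13 (SE), and LAMB1, a beta chain, at 0.11 ± 0.05 (SE). ITGB1, the beta chain shared by most matrix-binding integrins, was at -0.03 ± 0.06 (SE). All of these representative probes had adjusted p of 0.389 or more (limma). The second probes of COL4A1, LAMA4 and LAMC1 gave -0.02, -0.07 and -0.14, and the 6 other ITGB1 probes ran from -0.06 to 0.02.

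Slides of the array were tested as batches, since all 5 held both temperatures. With slide as a fixed block in the same limma model, 92 probes of the whole table (0.201%) and 9 member probes of 4 genes passed the threshold, the latter all lower in HS: COL5A3 with -0.51 ± 0.09 (SE, adjusted p 0.0232), COL1A2 with -0.36 ± 0.08 (SE, adjusted p 0.0406), 4 COL6A3 probes with -0.64 to -0.40 and 3 THBS1 probes with -0.51 to -0.47. With slide as a random block 54 probes of the table (0.118%) passed, and 3 of them were members, 1 of COL5A3 and 2 of COL6A3. Within single slides, the HS minus TN difference was taken after removing the mean of each genetic group over all arrays. For COL6A3 it was below 0 on all 5, from -1.06 to -0.10. For COL1A1, COL1A2, COL3A1 and COL5A3 it was below 0 on 4 of 5. The slide at -0.10 held 2 HS arrays and 1 TN array, 1 from each genetic group. Its sign therefore depends on the removed means.

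**Figure D3:**
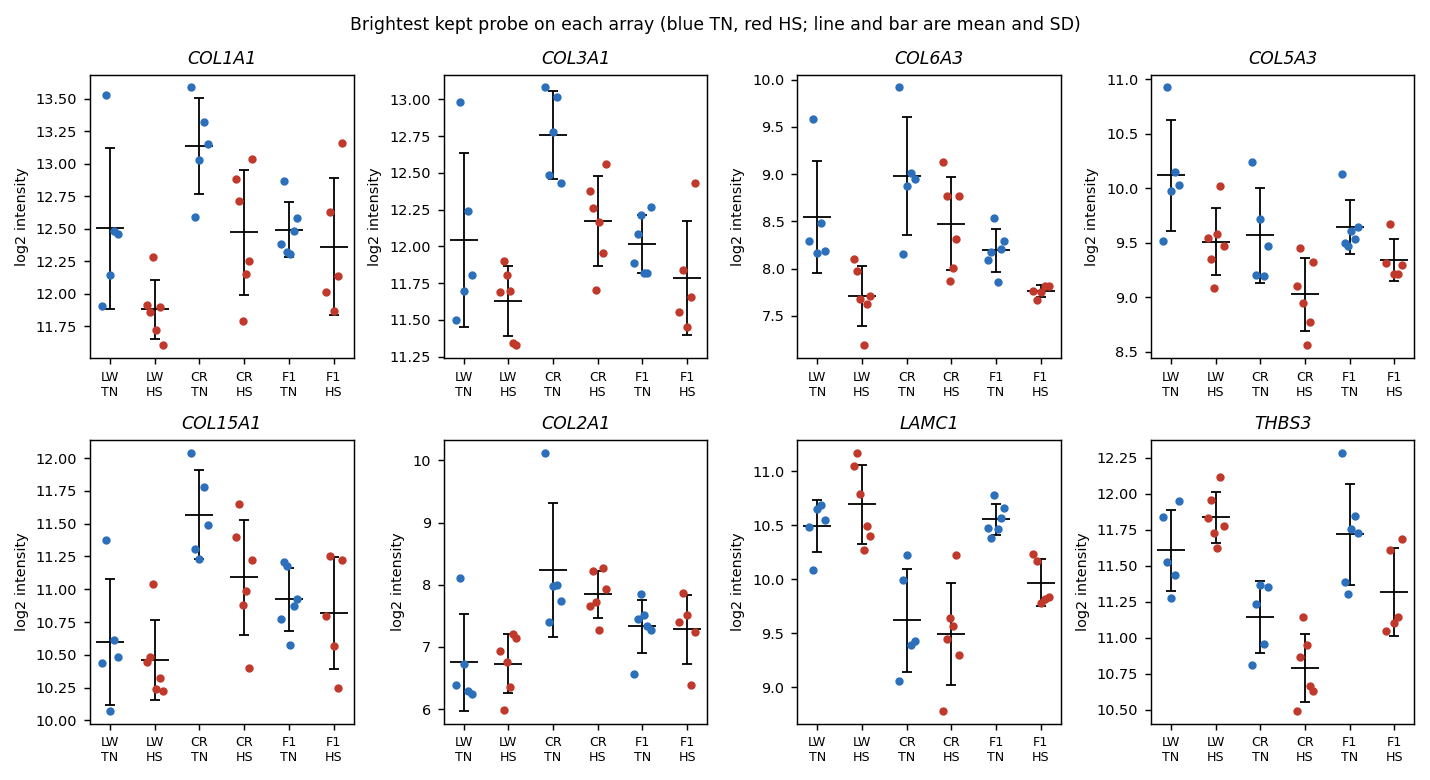
Log2 intensity of the representative probe of 8 genes on each of the 33 arrays, by genetic group and temperature, with TN in blue and HS in red, and the mean and SD of each group as a line and bars. COL6A3 and COL5A3 lie lower in HS than in TN in each genetic group with overlapping points, COL2A1 and COL15A1 lie lower in Large White than in Creole, and LAMC1 and THBS3 lie higher in Large White.

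Other genes of the matrix were listed by function, and their counts at an unadjusted p under 0.05 stand beside the 3.86% of all probes that were lower. Of 29 other matrix glycoproteins and proteoglycans 26 were lower in HS, 6 of them at an unadjusted p under 0.05, while 1 gene, EFEMP1, was higher at that threshold by 0.22, and the median was -0.13 beside 0.01 for all probes. CCN2, a matricellular protein, was at -0.44 and its older name CTGF, on another probe, at -0.49. ASPN, a small collagen-binding proteoglycan, was at -0.44 and SPARC, which binds collagen, at -0.23. Of 16 collagen processing genes 9 were lower, with a median of -0.03, and 4 were lower at an unadjusted p under 0.05, among them SERPINH1, the collagen chaperone of the endoplasmic reticulum, at -0.24 and PCOLCE, which helps to cleave procollagen, at -0.24. The TGF-beta list had 11 of 16 genes below 0 and 3 at that threshold, the metalloproteinases and inhibitors 8 of 14 and 2, and the focal adhesion partners 9 of 14 and 1. In all of these lists 0 genes had an adjusted p under 0.05 (limma).

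Markers of stromal and vascular cells also had lower HS values, and 0 of the 16 kept markers of these lists had an adjusted p under 0.05 (limma). Of 8 kept markers of mesenchyme and pericytes 8 were lower in HS and 5 had an unadjusted p under 0.05 (TAGLN, RGS5, DCN, PDGFRB and CSPG4), with a median of -0.26 and a summed log2 level from 14.37 to 15.06 in TN and from 14.22 to 14.79 in HS. Of 8 endothelial markers 8 were lower and 3 had an unadjusted p under 0.05 (VWF, PECAM1 and TIE1), with a median of -0.18 and a summed level from 13.03 to 14.58 in TN and from 12.98 to 13.68 in HS. Of 7 leukocyte and platelet markers 7 were lower and 1 had an unadjusted p under 0.05, with a median of -0.07. HBB, the beta globin of red cells, fell by 1.15 on the log2 scale (adjusted p 0.0301, limma). PDGFRA was well above background on 15 arrays, and MYH11, EMCN and ESAM had no probe in the table. In tissue of mixed cells, fewer cells of a type and less RNA per cell cannot be told apart, and the part of these markers in the collagen values was not tested.

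The same comparison was made within each genetic group. With 1 mean per group, 0 of the 45667 probes, members included, passed the threshold within any genetic group or for the interaction of breed and temperature (limma). At an unadjusted p under 0.05, 27 of 132 member probes (20.5%) were lower in HS in Large White, beside 2.74% of all probes, 38 (28.8%) in Creole, beside 2.66%, and 12 (9.09%) in F1, beside 2.47%. Without LW TN 2 the count in Large White was 10, and without CR TN 1 that in Creole was 24. For the interaction 17 member probes (12.9%) had an unadjusted p under 0.05, beside 4.25% of all, and their adjusted p was 0.926. That count was 8 without CR HS 4, 9 without CR TN 4 and with slide as a fixed block, and 11 without F1 HS 2, F1 TN 1, F1 TN 2 or LW HS 3. LAMC1 was among them, with differences of 0.21 for LW, -0.13 for CR and -0.59 for F1, and its second probe gave 0.26, -0.43 and -0.25. THBS3 had 0.23, -0.35 and -0.40. COL14A1 had -0.55, -0.57 and 0.17.

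The second comparison set Large White against Creole, and it gave calls in each of the 6 families. Of the 132 member probes 29 (22.0%) were lower in Large White at an adjusted p under 0.05, beside 3.05% of all probes, and 8 (6.06%) were higher, beside 3.61% (limma). These were 19 of 63 genes by their representative probe, 13 lower and 6 higher. The collagens held 24 of the 29 lower probes. For 0 of 132 member probes were the LW and CR arrays fully apart, beside 0.287% of all probes.

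Among the genes that were lower in Large White, COL2A1, the fibril collagen of cartilage, differed by -1.29 ± 0.25 (SE, adjusted p 0.00105, limma). It had a lowest, median and highest value of 5.99, 6.73 and 8.10 over the 11 LW arrays and of 7.28, 7.93 and 10.12 over the 11 CR arrays. COL8A2, a short-chain collagen of endothelial matrices, had 6.58, 7.50 and 8.015 in LW and 7.88, 8.07 and 8.89 in CR, a difference of -0.87 ± 0.16 (SE, adjusted p 0.000583, limma). COL15A1, a collagen at the border of basement membranes, had 10.07, 10.45 and 11.38 in LW and 10.4, 11.31 and 12.04 in CR, a difference of -0.78 ± 0.15 (SE, adjusted p 0.00101, limma). In all 3 genes the median of LW lay below that of CR and single arrays of the groups overlapped.

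COL12A1, which binds the surface of type I fibrils, differed by -0.63 ± 0.16 (SE, adjusted p 0.0131), and COL3A1 by -0.62 ± 0.14 (SE, adjusted p 0.0049). ADAMTS1, a protease that cleaves the proteoglycans aggrecan and versican, was at -0.62 ± 0.15 (SE, adjusted p 0.0103), but its other 2 probes gave -0.33 and 0.07 and did not pass, nor did the mean of its probes, at -0.30 (adjusted p 0.181). The remaining lower genes were COL6A3 (-0.61), COL1A1 (-0.61), COL1A2 (-0.56), COL14A1 (-0.55), ITGB5 (-0.40), LAMB1 (-0.32) and COL18A1 (-0.31). Both chains of type I collagen, the type III chain and the type VI chain COL6A3 were thus lower in Large White. The triple-helix COL1A2 probe printed above was lower by itself too, at -0.43 (adjusted p 0.00305), and all 3 ITGB5 probes passed, from -0.50 to -0.40. The second probes of COL1A1 (-0.59) and COL3A1 (-0.61) passed. Of 7 COL6A3 probes 4 passed, and those besides the representative ran from -0.64 to -0.06.

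COL14A1, which also binds fibrils, was the gene with the most probes. Of its 12 kept probes 8 were lower in Large White with adjusted p under 0.05, 1 more was at -0.54, and 3 lay between 0.0012 and 0.06. A pair of these 3 had an identical sequence, and their values differed by 0.048 ± 0.082 (mean ± SD over 33 arrays).

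The 6 other genes were higher in Large White. LAMC1 had 10.08, 10.55 and 11.17 as lowest, median and highest values in LW and 8.78, 9.445 and 10.23 in CR, a difference of 1.05 ± 0.15 (SE, adjusted p 2.6e-05, limma). Its second probe passed as well, with 0.40 (adjusted p 0.0211). THBS3, a pentameric thrombospondin of connective tissue, had 11.28, 11.77 and 12.12 in LW and 10.49, 10.95 and 11.37 in CR, a difference of 0.78 ± 0.12 (SE, adjusted p 9.1e-05, limma), and its second probe gave 0.67. COL5A3 was higher by 0.51 ± 0.14 (SE, adjusted p 0.0202), opposite in sign to the called fibril chains COL1A1, COL1A2, COL2A1 and COL3A1, and its second probe, at 0.27, was not called. ADAMTS2, the protease that removes the amino-terminal propeptide of procollagens, was at 0.41 ± 0.13 (SE, adjusted p 0.0435), ADAMTS16 at 0.33 ± 0.10 (SE, adjusted p 0.0351) and ITGA2, the alpha chain of a collagen receptor, at 0.26 ± 0.07 (SE, adjusted p 0.0224). The other ITGA2 probe was at -0.0021, and the ITGA2 call was lost for the mean of both probes, at 0.13, and under the processed intensity. The ADAMTS16 call was lost under the processed intensity, normexp background correction and array weights. The first 3 of these 6 kept their call when any single array was left out and in all processing alternatives.

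The second probes of LAMC1 and THBS3 are printed because they repeated the 2 largest positive differences with another set of bases.
LAMC1: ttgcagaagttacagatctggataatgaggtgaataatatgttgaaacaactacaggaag
THBS3: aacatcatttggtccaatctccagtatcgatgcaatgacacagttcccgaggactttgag

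Some called genes have a member as their direct neighbour in the pig genome, by the RefSeq gene order of assembly Sscrofa11.1, in which 61 of the 63 gene names were found. ITGA2 at 0.26 lies beside ITGA1 at 0.0093, and COL3A1 at -0.62 beside COL5A2 at -0.14 (Large White minus Creole). In both pairs 1 gene was called and the other was not. COL4A1 and COL4A2, which share a promoter region, were at 0.23 and 0.13 with adjusted p of 0.276 and 0.738.

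The function lists gave few calls between these groups besides the matrix glycoproteins, of which 7 of 29 were lower in Large White and 0 higher, with a median of -0.24. These were MATN2 (-0.82), DCN (-0.69), VTN (-0.64), NID1 (-0.61), OGN (-0.58), CCN2 (-0.54) and VCAN (-0.51), which include the proteoglycans decorin and osteoglycin and the basement membrane linker nidogen. MMP2, a gelatinase, was lower by 0.41 among 14 metalloproteinases and inhibitors, and P4HA1, a prolyl hydroxylase of collagen, was higher by 0.39 among 16 processing genes. The TGF-beta and focal adhesion lists had 0 calls of 16 and of 14, with 2 and 1 genes at an unadjusted p under 0.05.

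Markers of vascular and stromal cells were tallied here too. Among 8 endothelial markers 5 were higher and 3 lower in Large White, with a median of 0.16, and 2 were called (limma). KDR, the main VEGF receptor, was higher by 0.94 and CDH5, a junction cadherin, by 0.41. Among 8 mesenchyme and pericyte markers 4 were lower, with a median of 0.0044, and RGS5, higher by 0.72, and DCN, lower, were called. All 4 markers of folliculostellate cells, the glia-like support cells of the gland, lay lower in Large White, with a median of -0.24 and 0 calls. The summed level of the endothelial markers ran from 13.03 to 14.58 in LW and from 12.98 to 14.2 in CR, and that of the mesenchyme and pericyte markers from 14.22 to 14.94 and from 14.51 to 15.06. The part of these markers in the breed differences was not tested.

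Single arrays bear on some of these values. Without LW TN 2, whose COL6A3 and COL2A1 values stood above the rest of its group, the number of member probes with lower HS values at the unadjusted threshold was 29. With LW HS 3 left out or taken as Creole, ADAMTS2, ADAMTS16 and COL14A1 lost their call between Large White and Creole, and COL6A3 and ITGA2 lost it with that array taken as Creole but not with it left out. Taken as Creole, it left 24 called member probes, 4 of them higher in Large White, and 15 genes, 3 of them higher, while the calls over all probes went from 3039 to 1827. With slide as a fixed block ADAMTS2 and COL14A1 lost it too. Of the 19 calls, 13 held in each of the 33 fits that left out 1 array. COL14A1 was lost in 19 of these fits, with differences from -0.60 to -0.47, ADAMTS2 in 15 (0.32 to 0.47), ADAMTS16 in 12 (0.30 to 0.38), COL18A1 in 5 (-0.36 to -0.27), COL1A1 in 5 (-0.73 to -0.55) and COL6A3 in 2 (-0.74 to -0.52).

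The cross was set against each parental group. F1 against Creole gave 23 called member probes (17.4%), beside 6.86% of all probes, which were 11 genes, 6 lower and 5 higher in F1 (limma). The comparison shares its Creole arrays with the one above. Lower in F1 were COL6A3 (-0.76 ± 0.17, SE), ADAMTS1 (-0.68), COL1A2 (-0.59 ± 0.10, SE), COL3A1 (-0.56), COL18A1 (-0.30) and LAMB1 (-0.22). Higher were LAMC1 (0.72 ± 0.15, SE), THBS3 (0.57), ADAMTS16 (0.48), COL4A3 (0.25), a chain of the type IV network found in kidney and lung, and ADAMTS14 (0.19), a relative of ADAMTS2. The 2 other ADAMTS1 probes gave -0.32 and -0.27 and did not pass, nor did the second LAMC1 probe, at 0.24. Of 7 COL6A3 probes 4 were called, and those besides the representative ran from -0.70 to -0.11. The second probes of COL3A1 (-0.48) and THBS3 (0.46) passed, as did 2 of the 3 other COL1A2 probes (-0.47 to -0.31). COL1A1 was at -0.38 with an adjusted p of 0.184. Leaving out 1 array at a time lost the call of ADAMTS14 in 13 of 33 fits (0.16 to 0.21), of COL18A1 in 12 (-0.34 to -0.26), of LAMB1 in 8 (-0.25 to -0.20) and of COL4A3 in 3 (0.23 to 0.29). All 4 of these calls were lost with LW HS 3 taken as Creole, those of ADAMTS14, COL18A1 and LAMB1 also under the processed intensity, and those of ADAMTS14 and LAMB1 also under normexp background correction. The number of called member probes was 15 without CR HS 1, F1 HS 1 or CR TN 1. In these fits the calls over all probes went from 3135 to 2491, 2439 and 2599. Markers of other cells differed as well. All 4 folliculostellate markers lay lower in F1, with a median of -0.24 and 1 call, S100B at -0.39. Of 8 endothelial markers 6 were lower, with TEK called at -0.75 and KDR at 0.59, and of 8 mesenchyme and pericyte markers 5 were lower, with DCN called at -0.49 and ACTA2 at -0.24. Their part in the member values was not tested.

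F1 against Large White gave 3 called member probes (2.27%), beside 1.48% of all. The 1 gene with a called representative probe was ITGB2, the beta chain of leukocyte integrins, at -0.55 ± 0.11 (SE, adjusted p 0.00774). It had a lowest, median and highest value of 7.43, 8.11 and 8.24 in F1, of 8.01, 8.55 and 9.09 in LW and of 7.98, 8.24 and 8.67 in CR, so the F1 values reached below both parents. Against the mean of the parental groups 6 member probes (4.55%) were called, beside 2.88% of all, with ITGB2 at -0.45 (adjusted p 0.00905) and ADAMTS16 at 0.31 (adjusted p 0.0379) as genes, the latter lost in 13 of 33 fits that left out 1 array (0.27 to 0.38), under the processed intensity and with LW HS 3 taken as Creole. Of 7 kept leukocyte and platelet markers 0 were called between F1 and Large White, with 1 higher and 1 lower at an unadjusted p under 0.05 and a median of -0.06, and their part in the ITGB2 values was not tested. Of 8 endothelial markers 7 were lower in F1 than in Large White, with TEK called at -0.72 and CDH5 at -0.47, and RGS5 was called at -0.67 among the mesenchyme and pericyte markers. Of 4 red cell markers 3 were lower, 2 of them at an unadjusted p under 0.05, with a median of -0.30 and 0 calls. The part of these markers was not tested. Over all probes the calls against Large White went from 674 to 853 without F1 TN 1 and to 1158 without F1 HS 3. In both of these fits the called member probes numbered 5. Against the parental mean they ran from 2 to 14 over the fits without 1 array, with 14 without F1 HS 3 and 12 without CR TN 2 or LW HS 4, while the calls over all probes ran from 539 to 2258.

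**Figure D4:**
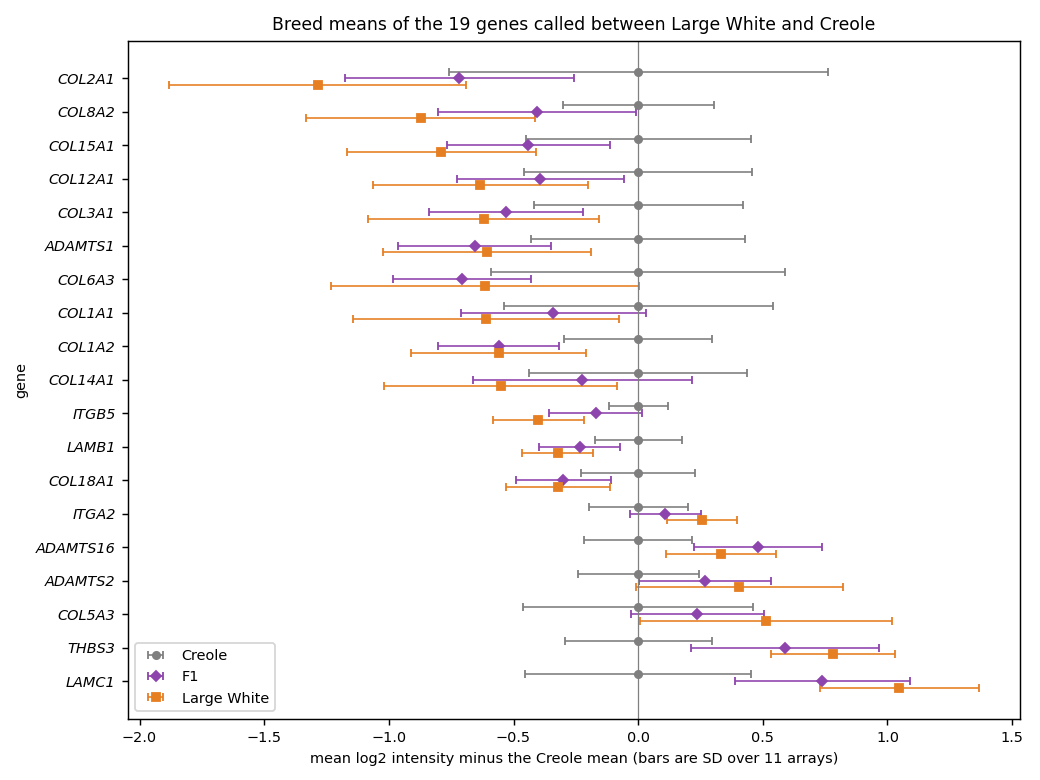
Mean log2 intensity of each genetic group minus the Creole mean, with the SD over 11 arrays as bars, for the 19 genes called between Large White (orange squares) and Creole (grey circles), with F1 as purple diamonds. F1 lies near Large White for COL1A2, COL18A1 and ADAMTS1 and between the parents for COL15A1, COL2A1 and ITGB5.

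The mean of F1 over its 11 arrays lay between those of its parents for 16 of the 19 genes, and beyond that of Large White for ADAMTS1, ADAMTS16 and COL6A3. These 19 genes were taken for their difference between the same parental arrays. The count therefore describes them only, and no share over all probes stands beside it. The groups held TN and HS arrays in unequal numbers, and by the fitted differences, which adjust for temperature, COL1A2 lay beyond Large White as well and 15 genes lay between. COL15A1 had means of 10.52 ± 0.38 (SD, n = 11) in LW, 10.87 ± 0.33 in F1 and 11.31 ± 0.45 in CR, and COL2A1 had 6.74 ± 0.60, 7.31 ± 0.46 and 8.03 ± 0.76. For COL1A2 the F1 mean of 11.69 ± 0.24 was that of Large White, 11.69 ± 0.35, beside 12.25 ± 0.30 in Creole. LAMC1 had 10.60 ± 0.32 in LW, 10.29 ± 0.35 in F1 and 9.55 ± 0.45 in CR. Between F1 and Large White the adjusted p of these 4 genes was 0.304 or more, and between F1 and Creole it was under 0.05 for COL1A2 and LAMC1.

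ITGB1 had 7 kept probes whose differences between F1 and its parents had both signs. Against Large White, 4 of them lay between -0.26 and -0.20 and 3 between 0.19 and 0.26, with adjusted p of 0.116 or more (limma). Against Creole the same 7 ran from -0.27 to 0.29, and 1 of them, at 0.29, was called (adjusted p 0.0375). Against the parental mean they ran from -0.27 to 0.25, and 1, at -0.27, was called (adjusted p 0.0452). Over the arrays, after group means were removed, the other 6 probes correlated with the brightest one at r between -0.305 and 0.944. One of the probes on the positive side is printed, since its letters encode the stretch where this chain crosses the membrane.
ITGB1: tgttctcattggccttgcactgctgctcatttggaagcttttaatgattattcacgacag
The ITGB3 gene, a beta chain of platelets and vessels, was represented by a probe at a mean of 19.28, among the 3 brightest probes of the table. That probe shared 20 or more bases with 3 probes of other names, and the run tgggttaaggatccagtgtt is 1 such stretch, and with this brightness its value is not read as a level of ITGB3. Its difference was below 0.01 in size in HS minus TN, and the 2 other ITGB3 probes did not pass in any comparison of temperature, genetic group or F1.

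Chains that form 1 molecule, share a fibril or membrane, or meet as ligand and receptor were compared array by array. Of 10 pairs that were listed, THBS1 with THBS2 could not be computed since THBS2 had no kept probe, which left 9. Over the 33 arrays, with the 6 group means removed, COL1A1 and COL3A1, chains of separate trimers that are mixed in fibrils, varied together (Pearson r = 0.863, Spearman rho = 0.787, permutation p 1e-05 for both, the smallest that 100000 resamples can give, adjusted p 9e-05 over the 9 pairs). Leaving out the 2 arrays most distant from the median gave r = 0.777, removing slide means as well gave 0.877, and within the 4 slides of 7 or 8 arrays it ran from 0.266 to 0.972.

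The other 8 pairs had adjusted p of 0.268 or more, with r from -0.0617 to 0.307. COL1A1 and COL1A2, the chains of the same trimer, had r = 0.307 and rho = 0.263 (permutation p 0.0812 and 0.138, adjusted 0.299 and 0.268). That value depended on the COL1A2 probe, since over the 8 pairs of kept probes r ran from 0.305 to 0.811. COL4A1 and COL4A2 had r = 0.175, and over their 2 probe pairs it was 0.175 and 0.62. COL4A1 with LAMC1, of the same basement membrane, had r = 0.282, and ITGA1 with ITGB1, of the same receptor, r = 0.267.

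**Figure D5:**
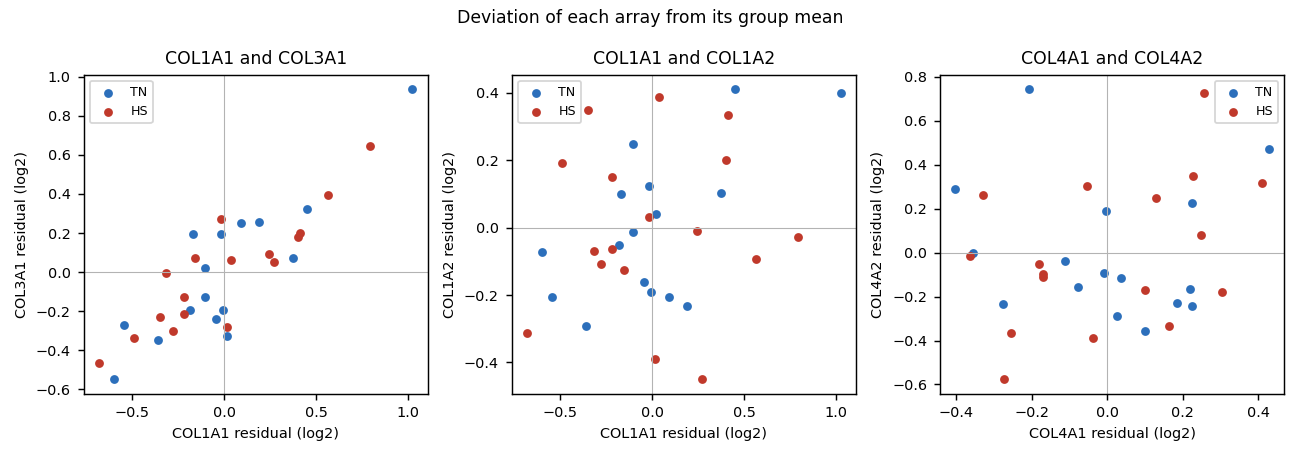
Deviation of each array from the mean of its group (log2) for COL1A1 with COL3A1, COL1A1 with COL1A2 and COL4A1 with COL4A2, with TN in blue and HS in red. The first pair follows a line (r = 0.863) and the other 2 scatter widely (r = 0.307 and 0.175).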

How the data were processed

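Per the labels, RNA of 33 pituitary samples was labelled with Cy3 and hybridised to 1-colour porcine arrays. The authors deposited log2 values for 45667 probes, quantile-normalized median pixel intensities without background correction; 59 values were missing. The deposited scanner files gave, per their headers, the intensity of each spot and its background from Agilent Feature Extraction 10.10.1.1 (processing notes of the submitters), with probe names and sequences. Recomputed values differed from the deposited log2 values by a median of 0.0038.

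The members, lists and tests were chosen with earlier results of these data known. Gene names are those of the array design. Each probe was fitted with limma 3.58.1 (R 4.3.3) as 0 + breed + temperature, or with 1 mean per group for the interaction and the differences within genetic groups, with Benjamini-Hochberg adjustment over all probes and a threshold of 0.05. Named were members passing the test (6 highest and 6 lowest if over 12), in HS against TN the 6 smallest p if fewer passed, and 10 genes for their role. COL14A1, ITGB5, ITGB3, the other called genes and the list genes were named after their values were seen. The fit was tested on simulated data. Alternatives were other background corrections and scalings, a stricter detection filter, slide as a block, array weights, LW HS 3 as Creole or left out, the mean of the probes of a gene and each array left out. The number of arrays limits the precision. In the plot by gene 1 counted member is not shown.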

Additional observations from a re-analysis of the deposited data

Results flagged for a closer look

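In 28 named genes, each of the 6 groups was examined for an array standing far from the rest, which chance alone would give in about 1 in 20 groups. Of 168 group values 11 had such an array. The array LW TN 2 stood apart in 4 genes. It had 9.58 for COL6A3 where the other LW TN arrays lay between 8.17 and 8.48, 8.10 for COL2A1 (others 6.24 to 6.73), 13.17 for COL4A2 (others 12.06 to 12.38) and 5.51 for ADAMTS2 (others 6.21 to 6.28). The array LW HS 3, whose labels named both breeds, had 11.04 for COL15A1, above the 10.23 to 10.48 of the other LW HS arrays.

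CR TN 1 had 10.12 for COL2A1 (others 7.40 to 7.997) and CR TN 4 had 8.89 for COL8A2 (others 7.89 to 8.01). For COL5A3, F1 TN 1 had 10.13 (others 9.47 to 9.64) and F1 HS 2 had 9.68 (others 9.21 to 9.32). CR HS 6 had 6.43 for ADAMTS16 (others 5.84 to 6.06), and CR HS 1 had 13.87 for ITGB1, below the others at 14.01 to 14.05.

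THBS3 values lay on opposite sides of the TN mean in 2 groups. In all 6 LW HS arrays it was above the LW TN mean and in all 5 F1 HS arrays below the F1 TN mean, and the interaction of breed and temperature had an unadjusted p of 0.0143 and an adjusted p of 0.926 (limma), so the difference did not pass. No THBS3 probe passed for heat within any genetic group. On the second THBS3 probe 1 of the 6 LW HS arrays was below the mean.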

How the results depend on the processing

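The values below are counts of member genes with an adjusted p under 0.05 (limma) unless another quantity is named. HS against TN had 0 genes, with 3 under slide as a fixed block and 2 under slide as a random block. F1 against Large White had 1 gene, with 6 under array weights (4 of them higher in F1, whereas ITGB2, the 1 gene, was lower, and with calls over all probes up from 674 to 2576) and 1 to 2 when single arrays were left out. F1 against the parental mean had 2, with 1 under the processed intensity and with LW HS 3 taken as Creole, 5 and 4 under slide as a fixed and as a random block, 6 under array weights, and 1 to 4 when single arrays were left out. Over all probes the calls of that comparison went from 1313 to 1868, 1896 and 3264 under the block fits and array weights. Large White against Creole stayed at 14 to 19 and F1 against Creole at 8 to 14 over the fits without 1 array. The former had 22 under array weights, and the latter 15 under each slide block and 16 under array weights. Over all probes the calls of the former went from 3039 to 4471 under array weights. Those of the latter went from 3135 to 4217 and 4027 under slide as a fixed and as a random block, and to 4626 under array weights. The number of member probes with lower HS values at the unadjusted threshold of 0.05 was 36, and 29 to 46 over the alternatives and the fits without 1 array. The representative THBS1 probe, at 0.0032 in HS minus TN, changed sign to -0.026 under array weights, to -0.00958 without LW HS 3 and to -0.38 for the mean of its probes, and ran from -0.024 to 0.022 over the fits without 1 array. The correlation of COL5A1 and COL5A2 changed from 0.0774 to -0.0167 without 2 arrays. Over the alternatives, ADAMTS12 in HS minus TN ran from -0.81 to -0.27. ADAMTS2 in Large White minus Creole ran from 0.29 to 0.73, and COL4A3 in F1 minus Creole from 0.16 to 0.48. Of 33 gene calls, 20 held under all alternatives and all fits without 1 array, and 0 changed sign. The range over probe pairs in the correlations was chosen after seeing the data. The causes were not tested. No paired analysis was possible because the replicate numbers were given in accession order.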

Other observations

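Further members had lower HS values at the unadjusted threshold of 0.05 without passing the adjustment (limma). COL4A5, a chain of type IV collagen, was at -0.26 ± 0.10 (SE, adjusted p 0.426), with its second probe at -0.22. LAMA2, the alpha chain of the laminin of muscle and nerve, was at -0.19 ± 0.07 (SE, adjusted p 0.333). ITGB2 was at -0.25 ± 0.09 (SE, adjusted p 0.361), beside lower values of all 7 kept leukocyte and platelet markers (median -0.07), whose part was not tested.

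Probes with the same sequence were on the array for 3 genes and show the technical spread. The COL6A3 pair differed by 0.16 ± 0.12 (mean ± SD over 33 arrays) and gave -0.39 and -0.35 in HS minus TN and -0.59 and -0.57 in Large White minus Creole. The COL6A2 pair differed by 0.0062 ± 0.22 and gave -0.05 and -0.03, and -0.15 and -0.14.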
